A study of Mus musculus with 112 samples.

Results

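Ribosome biogenesis is the assembly of ribosomes in the nucleolus, and 33 genes that act in it were followed here in sorted cells of the mouse small intestine, young and aged. The members were taken by gene symbol from the deposited count table, which lists 32285 genes, and all 33 were found and passed the filter on low counts in every comparison. They were grouped by role into 6 nucleolar scaffold proteins and regulators, 2 subunits of RNA polymerase I, 3 core proteins of box C/D and 4 of box H/ACA small nucleolar ribonucleoproteins (snoRNPs), 7 factors of the small subunit processome, 3 late small subunit factors and 8 large subunit factors.

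All mice were C57BL/6 and carried Lgr5-eGFP-IRES-CreERT2, a knock-in that puts GFP under control of the stem cell gene Lgr5. Crypt cells of the proximal small intestine were sorted by flow cytometry into 3 populations. Paneth cells, the secretory neighbours of the stem cells at the crypt base, were Epcam high, CD24 high, high in side scatter and GFP negative. Progenitors, the dividing offspring of stem cells, were Epcam high, CD24 low and medium to low in GFP, and intestinal stem cells (ISCs) shared that gate but were high in GFP. Aged mice were 23 to 27 months old and young mice 2 to 3 months old, with males and females in each group. With the repeat libraries of a Paneth animal added together, there were 12 aged and 12 young Paneth samples, 10 aged and 10 young progenitor samples, and 12 aged and 11 young ISC samples. The libraries were SC3-seq, which reads the 3' ends of transcripts, made from 1 ng of RNA each.

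In the nucleolus, RNA polymerase I copies the ribosomal RNA genes into a long precursor. snoRNPs modify this precursor, with box C/D particles adding methyl groups and box H/ACA particles converting uridine to pseudouridine, and large assemblies then cut and fold it into the small and large subunits. The pathway is among the most demanding that a growing cell runs, and MYC is known to raise transcription of many of its genes. In the intestine, crypt base stem cells and their progenitors divide often, while Paneth cells have left the cell cycle and secrete antimicrobial proteins.

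MYC and its partner MAX bind the E-box CACGTG, a palindrome that reads the same on both strands. In the RefSeq promoter table (GRCm38.p6, 250 bases before to 50 after the start of each gene) 28 of the 33 members were present, and 8 of the 28 (28.6%) held CACGTG. The same letters stood in 11.9% of the 9210 tested genes with a promoter and in 8.09% of all 27025 genes with a promoter. Only the exact letters CACGTG were searched for this motif, so a promoter without them is not shown to lack a site for MYC and MAX. The 8 stretches of 30 bases that hold these letters are printed on the strand of the gene, 5′ to 3′, with the E-box in capitals.
Grwd1 chr7:45830740-45830769, minus strand: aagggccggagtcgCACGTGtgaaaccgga
Ltv1 chr10:13193092-13193121, minus strand: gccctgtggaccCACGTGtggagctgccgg
Mybbp1a chr11:72441347-72441376, plus strand: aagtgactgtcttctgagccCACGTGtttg
Nop2 chr6:125131811-125131840, plus strand: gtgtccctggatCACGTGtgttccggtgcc
Pes1 chr11:3963965-3963994, plus strand: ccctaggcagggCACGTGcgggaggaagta
Tsr1 chr11:74898092-74898121, plus strand: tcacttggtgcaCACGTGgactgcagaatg
Utp20 chr10:88826765-88826794, minus strand: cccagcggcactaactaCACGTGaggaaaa
Wdr43 chr17:71616220-71616249, plus strand: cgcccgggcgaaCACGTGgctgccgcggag
In Nop2 the E-box began at position -60, before the start, while in the other members it lay within the first transcribed bases, from position 2 in Pes1 to position 40 in Mybbp1a counted from the start. The ETS motif CCGGAAGT, searched on both strands, was found in 8 of 28 member promoters (28.6%: Gar1, Grwd1, Heatr1, Ltv1, Nhp2, Ppan, Pwp2 and Tsr1) and in 9.7% of tested genes, and 3 promoters (Grwd1, Ltv1 and Tsr1) held both motifs. The motif of YY1 was found in 1 member promoter (Grwd1, 3.57%) against 2.53% of tested genes, that of NRF1 in 0 of 28 against 2.43%, and a further palindrome of 10 letters in 0 of 28 against 1.19%. A match describes the letters only.

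Libraries held 1.08 to 7.57 M counts. Samples of the 3 populations differed in composition before any member was considered. Transcripts of the mitochondrial genome took a median of 58.2% of Paneth counts, 4.02% of progenitor counts and 5.88% of ISC counts, and the 12 measured Paneth markers, among them the lysozyme gene Lyz1, a median of 234700 of every M counts of nuclear genes in Paneth samples. Olfm4, a stem cell marker not used in sorting, had a median of 2570.3 CPM of nuclear counts in Paneth samples, 1567 in progenitors and 13889 in ISCs. Tuft and immune markers were also measured in the Paneth gate, with medians of 708 and 146 CPM, against 15.6 and 3.36 CPM in ISCs, and 1 aged female ISC sample reached 455 CPM of immune markers. In bulk samples, fewer cells of a type and less RNA per cell cannot be told apart.

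The members together took the largest share of nuclear counts in ISCs. Their summed share ran from 0.197 to 0.378% (median 0.265%) in aged Paneth samples, 0.205 to 0.416% (median 0.323%) in young Paneth samples, 0.312 to 0.421% (median 0.356%) in aged progenitors, 0.350 to 0.444% (median 0.389%) in young progenitors, 0.497 to 0.604% (median 0.556%) in aged ISCs and 0.509 to 0.606% (median 0.568%) in young ISCs. Every progenitor sample lay below every ISC sample, and so did every Paneth sample. The aged and young samples of each population overlapped. As a share of all counts, mitochondrial ones included, the medians were 0.139% and 0.124% in aged and young Paneth samples and 0.537% in young ISCs. The sum is given as a description, with no test. It is a share of raw nuclear counts, so the Paneth markers above leave less for all other genes in Paneth samples. Npm1 weighs most in it, at a median of 929.5 normalised CPM in ISCs, against 54.18 for the median member.

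**Figure D1:**
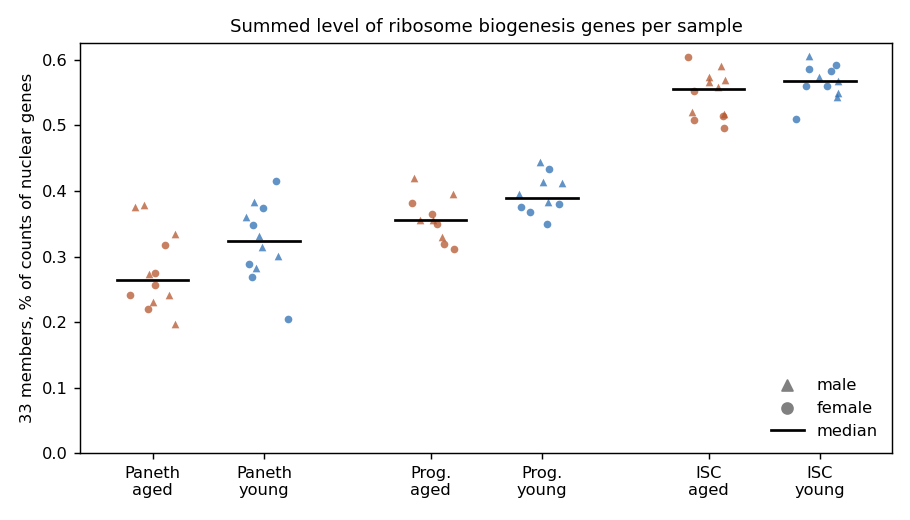
Share of nuclear gene counts taken by the 33 members (vertical axis, percent) in each of the 67 samples, with aged samples left of young ones in Paneth cells, progenitors and ISCs; triangles are males, circles females and bars medians. ISC samples lie above all progenitor and Paneth samples, and aged and young samples overlap in each population.

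To ask how the pathway differed between stem cells and their offspring, progenitors were compared with ISCs within each age by the edgeR quasi-likelihood F test, with p-values adjusted over all genes tested (Benjamini-Hochberg) and genes called at an adjusted p below 0.05. Levels are TMM-normalised counts per M (CPM), and differences are log2 fold changes with their standard error. In aged mice 19 of 33 members were lower in progenitors and 0 higher, where 19.4% of 12680 genes were called lower, 19.2% higher and 38.6% in all. In young mice 18 members were lower and 0 higher, where 18.5% of genes were called lower, 18.4% higher and 36.9% in all. The median member difference was -0.44 in aged and -0.39 in young mice, against medians of -0.05 and -0.06 over all genes tested. A total of 14 members were called at both ages: Ncl, Npm1, Gnl3, Mybbp1a, Polr1a, Polr1b, Nop56, Nop58, Utp20, Nop14, Nob1, Ppan, Nop2 and Nop16. Calls at both ages were not counted over all genes, as the shares above are for each age alone. Fbl, Nop10, Pwp2, Rrp9 and Wdr43 were called in aged mice, and Dkc1, Gar1, Grwd1 and Rrs1 in young mice, but the test of a change of these differences with age called 0 of 33 members (background 0.0158%), so the lists of the 2 ages are not shown to differ.

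Some animals gave both populations, so each comparison was repeated with the animal as a block. The blocked fit called 13 members lower in aged and 12 in young mice, of which 10 and 11 were also called without the block, and Bop1 higher at both ages. Of the 12436 genes in that fit, it called 1403 lower and 1677 higher in aged mice. In young mice it called 992 lower and 1532 higher. The calls it added were Dkc1, Grwd1 and Ltv1 in aged mice and Nhp2 in young mice (-0.38, adjusted p = 0.0184). The calls lost in aged mice were Nob1, Nop10, Nop14, Nop2, Nop56, Nop58, Polr1a, Pwp2 and Rrp9. Those lost in young mice were Nob1, Nop14, Nop2, Nop56, Polr1a, Polr1b and Utp20. The blocked fit used only animals with both populations, and the blocked estimates of the lost members all remained negative, from -0.71 (Nop56) to -0.19 (Rrp9) in aged and from -0.51 (Nop56) to -0.32 (Polr1b) in young mice. Some ISC sample names at each age end in the number 1 and no progenitor name does, so this number partly goes with population in the main fit. Animals with both populations had the same ending in both. The part of the number in the differences was not tested. With each sample left out in turn, the young calls of Utp20, Polr1b, Nop56, Polr1a and Grwd1 held in 30, 42, 33, 35 and 32 of 43 fits, the aged call of Nop10 in 37 of 43, and the other calls in all of them. Cell-cycle markers moved in the same direction as the members: 19 of 28 were lower and 1 higher in aged progenitors and 18 lower and 0 higher in young ones. Their summed level was 2878 to 4812 (median 3943) CPM of nuclear counts in aged progenitors, against 5440.1 to 6603 (median 6208) in aged ISCs, and 4243 to 5576 (median 4551) in young progenitors, against 6090.1 to 7643 (median 6594) in young ISCs. Their part in the member differences was not tested. Enterocyte, goblet and enteroendocrine markers were higher in progenitors (14 of 15, 12 of 12 and 13 of 13 tested genes in aged mice), and goblet markers alone summed to 14062 to 50883 (median 30005) CPM in aged and 15303 to 45143 (median 31480) in young progenitors, against 741 to 3432 (median 1294) and 777 to 3012 (median 1235) in aged and young ISCs. The part of these cells in the result was not tested.

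**Figure D2:**
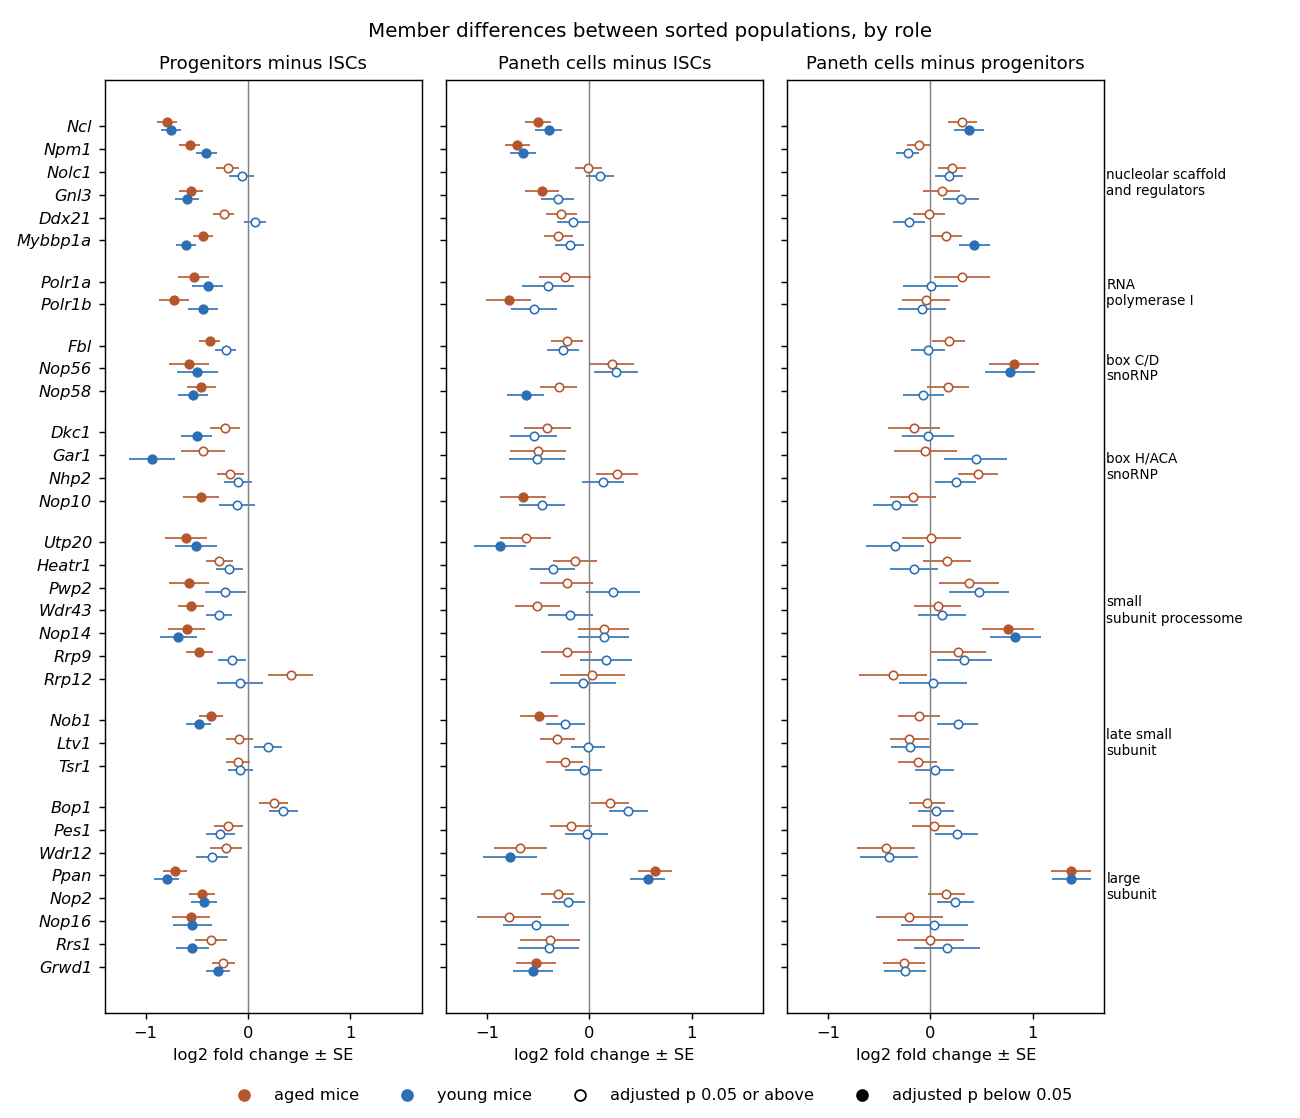
log2 fold change ± SE (horizontal axes) of each of the 33 members, ordered by role, in progenitors minus ISCs, Paneth cells minus ISCs and Paneth cells minus progenitors, in aged and young mice; filled points passed an adjusted p of 0.05. In the left panel filled points lie below 0 throughout, and in the right panel the filled points lie above 0, led by Ppan, a direction that turned without scaling.

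Scaffold proteins and regulators included the member with the smallest adjusted p. Ncl (chr1:86344719-86359400, GRCm38) encodes nucleolin, an abundant RNA-binding protein needed for transcription and processing of ribosomal RNA. Ncl measured 171 to 278 (median 224) CPM in aged progenitors, against 312 to 473 (median 378) CPM in aged ISCs. In the young samples Ncl measured 167 to 284 (median 231) CPM in progenitors, against 309 to 512 (median 373) CPM in ISCs. At each age every progenitor sample lay below every ISC sample, and the difference was -0.79 ± 0.10 (adjusted p = 1.16e-09) in aged and -0.76 ± 0.10 (adjusted p = 5.96e-09) in young mice. Npm1 (chr11:33152287-33163206) encodes nucleophosmin, the chaperone that organises the outer zone of the nucleolus. Npm1 ran from 486 to 876 (median 683) CPM in aged progenitors, against 736 to 1474 (median 925) CPM in aged ISCs. Young progenitors had 617 to 877 (median 706) CPM of Npm1, against 708 to 1260 (median 929.5) CPM in young ISCs. The groups overlapped at both ages while their medians stood apart (-0.57 ± 0.10, adjusted p = 5.89e-06 in aged and -0.41 ± 0.10, adjusted p = 0.00101 in young mice).

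Gnl3, or nucleostemin, is a nucleolar GTPase known for high levels in stem and dividing cells, and Mybbp1a is a nucleolar regulator of ribosomal RNA synthesis. Gnl3 was lower in progenitors, at -0.55 ± 0.12 in aged and -0.60 ± 0.12 in young mice (adjusted p = 0.000107 and 4.76e-05), and Mybbp1a at -0.44 ± 0.10 and -0.61 ± 0.10 (adjusted p = 0.000225 and 1.75e-06). In young mice all progenitor samples lay below all ISC samples for Mybbp1a, as for Ncl, and no other member separated the groups in this way. Of all genes tested, 1.96% lay below in this manner in young and 1.59% in aged mice. Nolc1, a chaperone of snoRNPs, and Ddx21, a helicase that links transcription to processing, were not called. The Nolc1 difference was -0.20 ± 0.12 in aged and -0.06 ± 0.12 in young mice, and that of Ddx21 was -0.24 ± 0.10 and 0.07 ± 0.10.

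Polr1a and Polr1b encode the catalytic core subunits of RNA polymerase I. Polr1a measured 16.3 to 47.1 (median 26.0) CPM in aged progenitors, against 27.1 to 57.9 (median 40.9) CPM in aged ISCs. In young mice Polr1a measured 27.6 to 44.8 (median 38.2) CPM in progenitors, against 31.6 to 68.5 (median 44.8) CPM in ISCs. The ranges overlapped, with differences of -0.53 ± 0.15 (adjusted p = 0.00374) in aged and -0.39 ± 0.15 (adjusted p = 0.0364) in young mice, and the block ended both calls. Polr1b stood at 18 to 34.8 (median 25.8) CPM in aged progenitors, against 30.0 to 52.8 (median 39.2) CPM in aged ISCs. Young progenitors had 17.5 to 33.9 (median 27.0) CPM of Polr1b, against 20.5 to 56.8 (median 31.1) CPM in young ISCs. Its difference was -0.73 ± 0.14 (adjusted p = 4.59e-05) in aged and -0.44 ± 0.15 (adjusted p = 0.014) in young mice, of which the young call was lost with the block.

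The box C/D core consists of Fbl (fibrillarin, the methyltransferase), Nop56 and Nop58. Fbl measured 49.7 to 73.1 (median 65.4) CPM in aged progenitors, against 58.6 to 103 (median 82.4) CPM in aged ISCs. In young mice Fbl measured 52.4 to 83.6 (median 74.1) CPM in progenitors, against 51.6 to 94.3 (median 84.4) CPM in ISCs. Fbl passed the test in aged mice (-0.37 ± 0.10, adjusted p = 0.00255) and not in young mice (-0.22 ± 0.10, adjusted p = 0.0945), with overlapping ranges. Nop56 spread more widely, at 5.96 to 35.4 (median 20.2) CPM in aged progenitors, against 12 to 40.6 (median 33.2) CPM in aged ISCs. Young progenitors held 16.5 to 31.1 (median 25.2) CPM of Nop56, against 25.5 to 49.7 (median 29.3) CPM in young ISCs. Its difference was -0.57 ± 0.20 (adjusted p = 0.0167) in aged and -0.50 ± 0.20 (adjusted p = 0.0443) in young mice. With the block the estimates were about as large or larger and missed the threshold, -0.71 (adjusted p = 0.0551) in aged and -0.51 (adjusted p = 0.191) in young mice. Nop58 was lower, at -0.46 ± 0.14 (adjusted p = 0.00865) in aged mice, a call lost with the block, and at -0.54 ± 0.14 (adjusted p = 0.00245) in young mice.

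In the box H/ACA group Dkc1 (dyskerin, the pseudouridine synthase) passed in young mice alone without the block. Dkc1 measured 21.4 to 71.5 (median 38.9) CPM in aged progenitors, against 35.5 to 63.4 (median 42.7) CPM in aged ISCs. In young mice Dkc1 measured 34.6 to 62.1 (median 44.8) CPM in progenitors, against 43.0 to 76.2 (median 66.6) CPM in ISCs. The difference was -0.22 ± 0.15 (adjusted p = 0.245) in aged and -0.50 ± 0.15 (adjusted p = 0.00712) in young mice, and the blocked fit also called it lower in aged mice. Gar1, a small core protein of the same particle, had the largest young difference of any member, -0.94 ± 0.22 (adjusted p = 0.000592), with -0.44 ± 0.22 in aged mice. The remaining core proteins gave -0.46 ± 0.18 (adjusted p = 0.0327) for Nop10 in aged mice, with -0.11 ± 0.18 in young mice, and -0.18 ± 0.13 and -0.10 ± 0.13 for Nhp2 in aged and young mice.

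Among the 7 small subunit processome factors, which fold and cut the precursor of the small subunit, 5 were lower in aged and 2 in young progenitors. Utp20 and Nop14 were called at both ages, Utp20 at -0.61 ± 0.20 in aged and -0.51 ± 0.21 in young mice and Nop14 at -0.60 ± 0.18 and -0.68 ± 0.18. Pwp2, Wdr43 and Rrp9 were called in aged mice, at -0.58 ± 0.20, -0.56 ± 0.12 and -0.48 ± 0.13, with -0.22 ± 0.20, -0.28 ± 0.13 and -0.16 ± 0.14 in young mice. Heatr1, a large scaffold of the processome, measured 29.0 to 50.4 (median 36.1) CPM in aged progenitors, against 36.2 to 59.5 (median 42.9) CPM in aged ISCs. In young mice Heatr1 measured 28.1 to 56.8 (median 38.0) CPM in progenitors, against 34.8 to 61.1 (median 43.8) CPM in ISCs. Neither difference was called (-0.28 ± 0.13 and -0.19 ± 0.13), and Rrp12, which also acts in subunit export, gave 0.42 ± 0.22 in aged and -0.08 ± 0.22 in young mice.

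Late small subunit factors complete the particle in the cytoplasm, where Nob1 makes the final cut of the small subunit RNA. Nob1 measured 34.8 to 91.6 (median 58.1) CPM in aged progenitors, against 50.2 to 103 (median 77.7) CPM in aged ISCs. In young mice Nob1 measured 38.7 to 59.4 (median 49.6) CPM in progenitors, against 53.9 to 90.9 (median 66.2) CPM in ISCs. Nob1 was lower, at -0.36 ± 0.12 (adjusted p = 0.0113) in aged and -0.48 ± 0.12 (adjusted p = 0.000984) in young mice, both lost with the block. Ltv1 (-0.09 ± 0.13 in aged and 0.20 ± 0.14 in young mice) and Tsr1 (-0.10 ± 0.12 and -0.08 ± 0.12), which leave the particle at this stage, were not called in these fits, and the block called Ltv1 lower in aged mice (-0.47, adjusted p = 0.0474). Both hold an E-box in the stretches printed above.

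Of the large subunit factors, Ppan (chr9:20888175-20892178), a homologue of yeast Ssf1, showed the largest difference. Ppan measured 47.0 to 89.5 (median 70.4) CPM in aged progenitors, against 78.7 to 155 (median 117) CPM in aged ISCs. In young mice Ppan measured 52.9 to 109 (median 74.7) CPM in progenitors, against 98.3 to 202 (median 124) CPM in ISCs. Ppan was lower in progenitors, at -0.71 ± 0.12 (adjusted p = 1.61e-06) in aged and -0.80 ± 0.12 (adjusted p = 2.14e-07) in young mice. Nop2, a ribosomal RNA methyltransferase, stood at 30.6 to 67.0 (median 46.3) CPM in aged progenitors, against 46.2 to 97.1 (median 58.6) CPM in aged ISCs. Young progenitors held 41.0 to 63.6 (median 56.4) CPM of Nop2, against 48.6 to 92.4 (median 69.8) CPM in young ISCs. Nop2 was lower, at -0.45 ± 0.13 (adjusted p = 0.00398) in aged and -0.43 ± 0.13 (adjusted p = 0.0069) in young mice, and the block ended both calls.

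Bop1, Pes1 and Wdr12 form the PeBoW complex, which processes the large subunit RNA, and none of them was called in these fits. Bop1 measured 47.7 to 92.4 (median 74.8) CPM in aged progenitors, against 29.5 to 89.0 (median 59.4) CPM in aged ISCs. In young mice Bop1 measured 50.1 to 87.0 (median 71.5) CPM in progenitors, against 32.7 to 81.6 (median 54.1) CPM in ISCs. Bop1 had positive estimates that missed the threshold, 0.25 ± 0.14 (adjusted p = 0.158) in aged and 0.34 ± 0.14 (adjusted p = 0.0526) in young mice, and with the block it was higher at 0.41 (adjusted p = 0.0444) and 0.58 (adjusted p = 0.00541). Its partners gave -0.19 ± 0.14 and -0.27 ± 0.14 (Pes1) and -0.22 ± 0.16 and -0.35 ± 0.16 (Wdr12) in aged and young mice. Grwd1, a chaperone of a ribosomal protein, measured 39.4 to 80.4 (median 59.9) CPM in aged progenitors, against 43.6 to 107 (median 61.2) CPM in aged ISCs. For the young mice Grwd1 measured 52.8 to 73.8 (median 64.3) CPM in progenitors, against 55.0 to 93.2 (median 82.1) CPM in ISCs. The Grwd1 difference was -0.24 ± 0.11 (adjusted p = 0.0891) in aged and -0.29 ± 0.12 (adjusted p = 0.0435) in young mice, and the block called it in aged mice as well (-0.58, adjusted p = 0.00531). Nop16 was lower at both ages (-0.56 ± 0.19 and -0.55 ± 0.19), and Rrs1, which helps place the small RNA of the large subunit, in young mice (-0.54 ± 0.16, adjusted p = 0.0064; -0.36 ± 0.16 in aged mice).

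The calls were also counted for members with and without an E-box, as a description. In aged mice 4 of the 8 members with CACGTG in the promoter were lower in progenitors, with a median difference of -0.34, and so were 13 of the 20 whose promoter lacked it, with a median of -0.47. In young mice the counts were 4 of 8 (median -0.29) and 12 of 20 (median -0.46). Of the 5 members absent from the RefSeq promoters 2 were lower at each age, with medians of -0.36 in aged and -0.22 in young mice. Over all genes tested 19.4% were called lower in aged and 18.5% in young mice. The part of MYC in these counts was not tested. Myc itself was lower in progenitors, at -1.76 ± 0.22 (adjusted p = 1.32e-08) in aged and -1.64 ± 0.22 (adjusted p = 7.78e-08) in young mice. Mycl, a relative of Myc, was lower, at -0.76 ± 0.19 (adjusted p = 0.000873) and -1.49 ± 0.19 (adjusted p = 6.6e-09), while Max gave 0.08 ± 0.19 (adjusted p = 0.778) and 0.12 ± 0.19 (adjusted p = 0.65).

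The rest of the pathway was read from a wider list of 171 other ribosome biogenesis genes. Here 37 were lower and 3 higher in aged progenitors and 39 lower and 9 higher in young ones, with medians of -0.18 and -0.21. The shares called lower, 21.6% and 22.8%, lie near the 19.4% and 18.5% of all genes. Among 17 other genes of RNA polymerase I and its factors, 5 were lower in aged mice and 6 lower and 1 higher in young mice, with Taf1d called at both ages. Taf1d is a subunit of the polymerase's selectivity factor (-0.73 ± 0.13, adjusted p = 9.33e-06 in aged and -0.87 ± 0.13, adjusted p = 5.26e-07 in young mice). Ubtf, the factor that holds ribosomal RNA genes open, was lower, at -0.95 ± 0.16 (adjusted p = 3.43e-06) in aged mice. Of 49 other small subunit genes 9 were lower and 2 higher in aged mice and 11 lower and 5 higher in young mice, with the acetyltransferase Nat10 at -0.88 ± 0.16 (adjusted p = 9.66e-06) and -0.77 ± 0.16 (adjusted p = 0.000106). Of 51 other large subunit genes 15 were lower and 1 higher in aged mice and 14 lower and 1 higher in young mice. The gene called higher in young mice, Eif6, keeps new large subunits from joining small ones too early (0.64 ± 0.09, adjusted p = 9.21e-08). The 11 snoRNP assembly genes held 4 lower at each age, the 23 exosome and RNase MRP genes 2 lower in aged mice and 1 lower and 2 higher (Pop5 and Exosc4) in young mice, and the 20 genes of RNA polymerase III and its RNA 2 and 3. Of 77 genes of cytosolic ribosomal proteins, the parts these factors assemble, 35 were lower and 1 higher in aged progenitors and 43 lower and 0 higher in young ones.

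Paneth cells were set against ISCs in the same way. In aged mice 7 of 33 were lower (Ncl, Npm1, Gnl3, Polr1b, Nop10, Nob1 and Grwd1) and 1 higher (Ppan), where 9.18% of 12863 genes were called lower and 15.2% higher (24.4% called in all). In young mice 6 were lower (Ncl, Npm1, Nop58, Utp20, Wdr12 and Grwd1) and Ppan was again higher, where 9.77% of genes were called lower and 14.7% higher (24.4% called in all). The median member difference was -0.30 in aged and -0.23 in young mice, against 0.00 and -0.02 over all genes. Without TMM scaling, on totals that hold the mitochondrial counts, the median of all genes moved to -1.61 in aged and -1.86 in young mice. All 33 members, Ppan included, were then called lower, where 10014 and 10598 of 12863 genes were called lower. Directions in Paneth cells are thus relative to the bulk of genes. With the animal as a block 6 members were lower in aged mice (Gnl3, Grwd1, Ncl, Npm1, Polr1b and Nop16) and 2 in young mice (Grwd1 and Npm1). Of the 13670 genes in that fit, 1171 were called lower in aged and 660 in young mice. With the first technical library of each animal alone 3 and 2 members were lower, where 921 and 825 of 12070 genes were called lower. Without the aged male Paneth sample 2, 4 members were lower in aged mice, and with each sample left out in turn the aged calls of Nob1, Nop10, Gnl3 and Grwd1 held in 30, 45, 41 and 33 of 47 fits and the young call of Grwd1 in 40 of 47. Cell-cycle markers were lower for 26 of 28 genes in aged and 23 of 28 in young Paneth samples, and tuft markers were higher for 10 of 10 at each age and immune markers for 8 of 8 in aged and 6 of 8 in young mice. Immune markers summed to 96.6 to 478 (median 152) CPM in aged and 48.7 to 418 (median 146) CPM in young Paneth samples, and the part of these lists in the member differences was not tested.

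Npm1 had the smallest adjusted p of the lower members. It measured 417 to 933 (median 603) CPM in aged Paneth samples and 372 to 917 (median 556) CPM in young Paneth samples, and both medians lay below the lowest ISC sample of the same age given above. The differences from ISCs were -0.70 ± 0.12 (adjusted p = 6.32e-06) in aged and -0.65 ± 0.12 (adjusted p = 3.41e-05) in young mice, and were called in every alternative fit and with every sample left out in turn. Ncl measured 170.4 to 460.3 (median 263) CPM in aged and 179.7 to 449 (median 277) CPM in young Paneth samples, between progenitors and ISCs by its medians. It was lower than in ISCs, at -0.50 ± 0.13 (adjusted p = 0.00227) in aged and -0.40 ± 0.13 (adjusted p = 0.0188) in young mice, the young call being lost with the block. Grwd1 measured 21.8 to 87.0 (median 46.9) CPM in aged and 18.9 to 106 (median 51.8) CPM in young Paneth samples, lower than in ISCs, at -0.52 ± 0.20 (adjusted p = 0.045) and -0.55 ± 0.20 (adjusted p = 0.0338). Polr1b measured 5.88 to 53.3 (median 19.5) CPM in aged and 9.20 to 43.9 (median 23.0) CPM in young Paneth samples. Its difference from ISCs was called in aged mice (-0.79 ± 0.22, adjusted p = 0.00466) and missed the threshold in young mice (-0.54 ± 0.22, adjusted p = 0.0661).

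In young Paneth cells Utp20 and Wdr12 had the largest negative differences, -0.87 ± 0.25 and -0.77 ± 0.26 (adjusted p = 0.00743 and 0.0246), and Nop58 was at -0.62 ± 0.18 (adjusted p = 0.00793), and with the block these 3 missed the threshold at -0.79 (adjusted p = 0.142), -0.82 (adjusted p = 0.139) and -0.44 (adjusted p = 0.365). In aged mice Nop10 was lower, at -0.65 ± 0.23 (adjusted p = 0.0276), with Nob1 at -0.49 ± 0.19 (adjusted p = 0.0462) and Gnl3 at -0.46 ± 0.16 (adjusted p = 0.0292), of which Nop10 and Nob1 missed the threshold with the block at estimates as large, -0.65 (adjusted p = 0.115) and -0.50 (adjusted p = 0.088). Nob1 measured 28.1 to 82.2 (median 51.0) CPM in aged and 15.2 to 93.8 (median 60.3) CPM in young Paneth samples. Members not called against ISCs included Polr1a at 10.4 to 97.1 (median 32.7) CPM in aged and 9.36 to 73.4 (median 33.5) CPM in young Paneth samples.

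Ppan was the member called higher in Paneth cells than in both other populations on the TMM scale, a direction that turned without scaling. It measured 55.1 to 263 (median 203) CPM in aged and 112 to 337 (median 186) CPM in young Paneth samples. In young mice every Paneth sample lay above every progenitor sample, the only member for which these groups did not overlap (1 of 33, where 1.59% of all genes tested lay above in this manner), and in aged mice the ranges overlapped. Against progenitors the difference was 1.37 ± 0.19 (adjusted p = 1.3e-07) in aged and 1.38 ± 0.19 (adjusted p = 1.09e-07) in young mice, and against ISCs 0.64 ± 0.17 (adjusted p = 0.00265) and 0.57 ± 0.17 (adjusted p = 0.00984). Both directions hold relative to the TMM scale: without scaling Ppan was lower than in ISCs, at -1.01 and -1.27, and missed the threshold against progenitors (-0.16 and -0.36), while the median of all genes was -1.45 in aged and -1.71 in young Paneth cells against progenitors. The order of medians was Paneth cells, ISCs and progenitors at each age, and all neighbours in that order differed by the test.

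Against progenitors, 3 members were higher in aged Paneth cells (Ppan, Nop56 and Nop14) and 0 lower, where 13.1% of 12589 genes were called higher, 7.98% lower and 21.1% in all. In young mice 5 were higher (Ppan, Nop56, Nop14, Mybbp1a and Ncl) and 0 lower, where 13.5% of genes were called higher, 9.17% lower and 22.7% in all. These shares of members, 3 and 5 of 33, lie near the share of all genes called higher, and the member medians were 0.03 and 0.05. Nop56 measured 6.90 to 53.5 (median 38.8) CPM in aged and 29.4 to 66.8 (median 37.5) CPM in young Paneth samples, higher than in progenitors, at 0.82 ± 0.25 (adjusted p = 0.0115) and 0.77 ± 0.24 (adjusted p = 0.0156). Nop14 was higher, at 0.76 ± 0.25 (adjusted p = 0.0232) and 0.83 ± 0.25 (adjusted p = 0.0114). With the block both Nop56 calls (0.67, adjusted p = 0.21 in aged and 0.78, adjusted p = 0.051 in young mice), the aged Nop14 call (0.27, adjusted p = 0.548) and the young Mybbp1a call (0.16, adjusted p = 0.541) were lost. Without scaling 0 members were higher and 32 lower at each age, where 9255 and 9999 of 12589 genes were called lower in aged and young mice. Mybbp1a was higher in young mice, at 0.43 ± 0.15 (adjusted p = 0.0348), and so was Ncl, at 0.38 ± 0.14 (adjusted p = 0.0488). The Ncl call held in 17 of 44 fits that left out a sample, the Mybbp1a call in 33 of 44 and the aged and young Nop14 calls in 41 and 43 of 44.

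**Figure D3:**
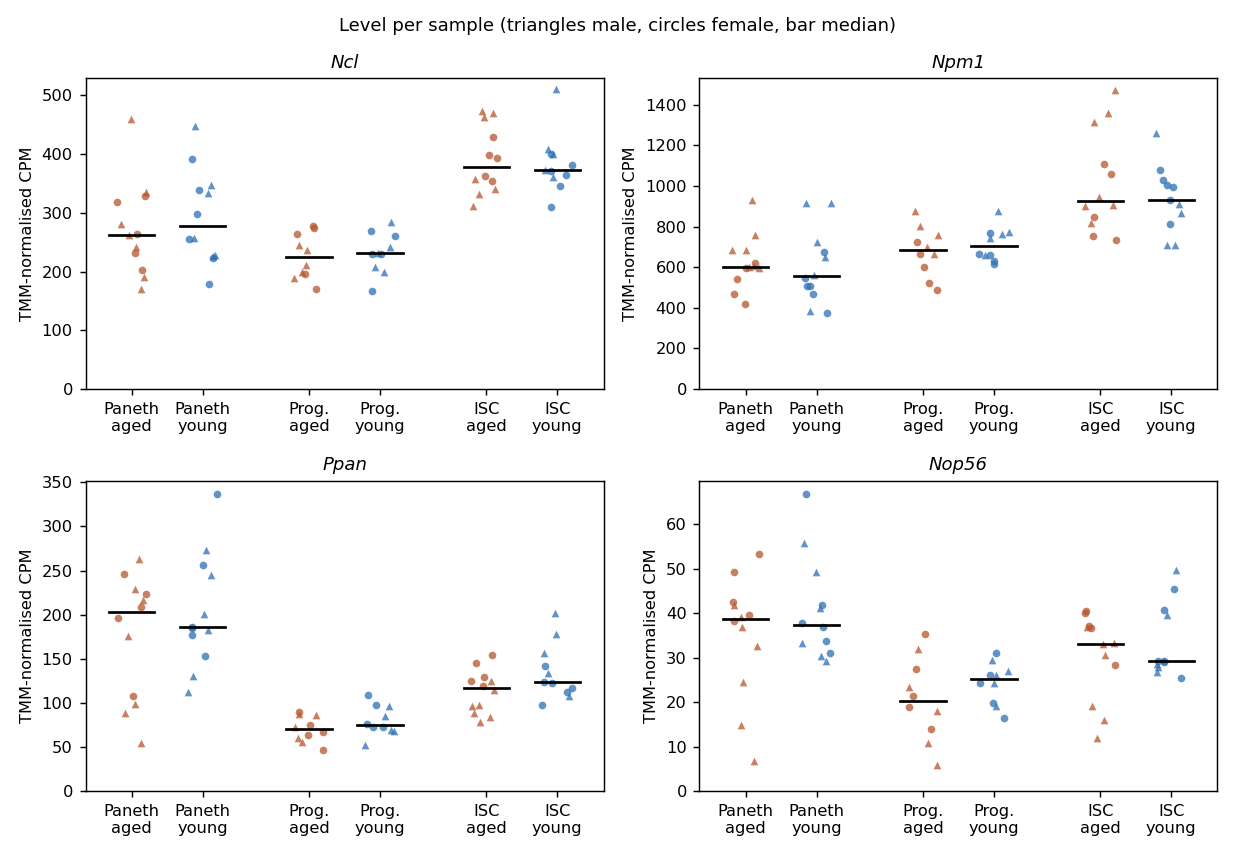
Level of Ncl, Npm1, Ppan and Nop56 in each sample (vertical axes, TMM-normalised CPM), with aged samples left of young ones in Paneth cells, progenitors and ISCs; triangles are males, circles females and bars medians. Ncl and Npm1 are highest in ISCs, while Ppan is highest in Paneth cells by its median on the TMM scale (lower than in ISCs without scaling) and lowest in progenitors.

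The other genes of the pathway were called in both directions in Paneth cells, on the TMM scale. Against ISCs 22 of 171 other ribosome biogenesis genes were lower and 8 higher in aged mice, and 35 lower and 10 higher in young mice, with medians of -0.28 and -0.29. Of all genes, 9.18% were called lower and 15.2% higher in aged mice, and 9.77% lower and 14.7% higher in young mice. At each age the share of the list called higher was below that of all genes, and the share called lower was above it. The large subunit factor Tex10 was lower, at -1.17 ± 0.25 (adjusted p = 0.000178) in aged and -0.91 ± 0.25 (adjusted p = 0.00462) in young mice, while the helicase Ddx54 was higher, at 0.61 ± 0.13 (adjusted p = 0.000275) in aged mice. Brf1, a part of the RNA polymerase III initiation factor, was higher in aged Paneth cells than in ISCs, at 0.96 ± 0.18 (adjusted p = 3.33e-05). Myc was lower, at -1.12 ± 0.23 (adjusted p = 0.000114) in aged and -1.05 ± 0.23 (adjusted p = 0.000319) in young mice, and Mxd4, a MAX partner that opposes MYC, was higher, at 1.65 ± 0.19 (adjusted p = 3.01e-10) and 1.47 ± 0.19 (adjusted p = 1.3e-08). Against progenitors 11 of the 171 genes were higher and 8 lower in aged mice and 14 higher and 14 lower in young mice. The shares called higher, 6.43% and 8.19%, lie below the 13.1% and 13.5% of all genes. Cytosolic ribosomal protein genes were higher than in progenitors for 17 of 77 in aged and 33 of 77 in young mice, with 0 lower at either age.

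Aged and young samples were then compared within each population, as the mean of the male and the female difference. No member was called in Paneth cells, progenitors or ISCs, where 0.0686% of 11663 genes, 0.728% of 11812 genes and 0.36% of 11958 genes were called. At an unadjusted p below 0.05 there were 0 members in Paneth cells, 5 in progenitors and 3 in ISCs, where 6.83%, 9.06% and 8.87% of all genes passed, so the ISC share is near that of all genes. DESeq2 and limma-voom also called 0 members in each population. The median member difference was -0.18 in Paneth cells, -0.13 in progenitors and -0.06 in ISCs, against 0.01, 0.00 and -0.01 over all genes tested. Without the animals of 26 and 27 months the member medians were -0.08, -0.05 and -0.02 in the same order, and with the number at the end of the sample names as a term the ISC median was 0.02. In ISCs that number also sets these animals apart, so those settings are not separate checks there. In Paneth cells the sign of the member median turned without scaling (0.07, with a median of all genes of 0.24), and mitochondrial transcripts took a median of 55.0% of counts in aged and 61.3% in young Paneth samples, whose part in the result was not tested. Under TMM, estimates lay below 0 for 29 members in Paneth cells, 25 in progenitors and 21 in ISCs, and in each population the aged and young samples overlapped for every member. Over all genes tested they failed to overlap for 0.00861% in Paneth cells, 0.0677% in progenitors and 0.0585% in ISCs. The largest 95% interval bounds over all members were -0.86 and 0.59 in ISCs and -0.72 and 0.64 in progenitors, so for all 33 members a 2-fold change in either direction lay outside the interval. In Paneth cells the bounds reached -1.20 and 0.78, and 30 members had intervals within 2-fold.

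**Figure D4:**
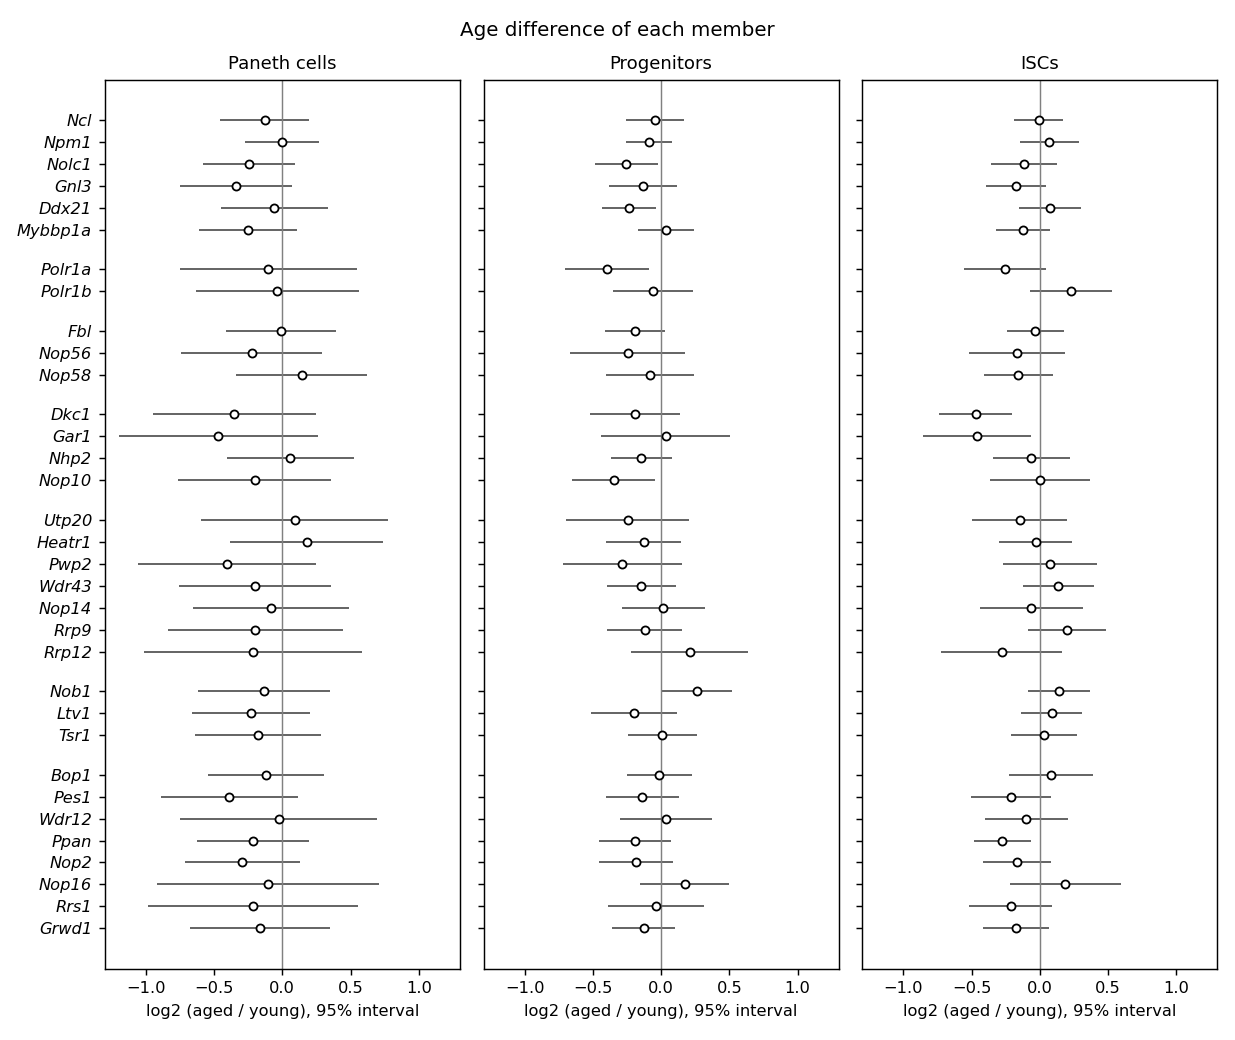
log2 ratio of aged to young level with its 95% interval (horizontal axes) for each member in Paneth cells, progenitors and ISCs. Points lie mostly below 0 and their intervals are widest in Paneth cells; no member passed an adjusted p of 0.05.

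Dkc1 in ISCs came closest to the threshold. It measured 35.5 to 63.4 (median 42.7) CPM in aged ISCs, against 43.0 to 76.2 (median 66.6) CPM in young ISCs, and the aged and young ranges overlapped. The difference was -0.47 ± 0.13 (adjusted p = 0.132) (95% interval -0.74 to -0.20), with -0.35 ± 0.30 in Paneth cells and -0.19 ± 0.16 in progenitors. Gar1, of the same snoRNP, gave -0.46 ± 0.20 (adjusted p = 0.455) in ISCs. In progenitors the smallest adjusted p belonged to Polr1a (-0.39 ± 0.15, adjusted p = 0.351), at 16.3 to 47.1 (median 26.0) CPM in aged progenitors, against 27.6 to 44.8 (median 38.2) CPM in young progenitors. Ddx21 (-0.23 ± 0.10), Nolc1 (-0.26 ± 0.11) and Nop10 (-0.35 ± 0.15) had negative estimates and Nob1 (0.26 ± 0.13) a positive one, with adjusted p of 0.426 to 0.535. In aged Paneth cells the smallest adjusted p was that of Gnl3 (-0.34 ± 0.20, adjusted p = 0.802).

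Ncl, Npm1 and Fbl had estimates near 0. The Ncl difference was -0.13 ± 0.16 in Paneth cells, -0.05 ± 0.10 in progenitors and -0.01 ± 0.09 in ISCs, where its 95% interval was -0.19 to 0.17. For Npm1 the estimates were 0.00 ± 0.13, -0.09 ± 0.08 and 0.07 ± 0.11 in the same order, with an interval of -0.15 to 0.29 in ISCs. Fbl gave -0.01 ± 0.20, -0.19 ± 0.11 and -0.03 ± 0.10. Of the 171 other ribosome biogenesis genes 0 were called in any population, and Myc gave 0.08 ± 0.27 (adjusted p = 0.985) in Paneth cells, 0.03 ± 0.23 (adjusted p = 0.983) in progenitors and 0.15 ± 0.15 (adjusted p = 0.855) in ISCs. In aged progenitors 2 of 28 cell-cycle genes were lower, Top2a (-0.60 ± 0.11, adjusted p = 0.00198) and Ube2c (-0.52 ± 0.10, adjusted p = 0.00303).

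Within 1 sex, Ppan in male ISCs was the single member called, where 0.217% of genes were called. In female ISCs (0.0753% of genes called), in male and female progenitors (0.178% and 0.0847%) and in male and female Paneth cells (0.0343% and 0.0171%) the count was 0 of 33. Ppan measured 78.7 to 125 (median 96.5) CPM in 7 aged male ISC samples, against 108 to 202 (median 157) CPM in 5 young male ISC samples, and the ranges overlapped. The difference was -0.69 ± 0.14 (adjusted p = 0.0168). Females gave 0.14 ± 0.15 (adjusted p = 0.94), at 119 to 155 (median 129.8) CPM in 5 aged female samples, against 98.3 to 142 (median 119.9) CPM in 6 young female samples. The test of the difference between the sexes did not pass (-0.83 ± 0.20, adjusted p = 0.45), nor did it for any member in any population (0% of genes called). The male call was lost in 3 of 9 alternatives: without the animals of 26 and 27 months (-0.58, adjusted p = 0.185), with the number at the end of the sample names as a term (-0.59, adjusted p = 0.154) and with the title number as a replicate block (-0.64, adjusted p = 0.147). In ISCs that number also sets the animals of 26 and 27 months apart, so the first 2 of these alternatives are not separate checks. The call was also lost in 3 of 23 fits that left out a sample: without the young male sample 3 (-0.58) or 4 (-0.63) and without the aged male sample 2 (-0.64).

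Samples of a population varied most in Paneth cells. The median coefficient of variation over members was 41.7% in aged and 39.1% in young Paneth samples, 23.3% and 16.3% in aged and young progenitors and 21.5% and 21.8% in aged and young ISCs. It was higher in Paneth cells than in ISCs for 32 of 33 members in aged and 30 of 33 in young mice. The larger spread was not limited to the members: the common biological coefficient of variation over all genes was 0.706 in the age fit of Paneth cells, 0.333 in progenitors and 0.433 in ISCs. The counts behind the values were lower there as well, down to 3 counts of Rrp12 in an aged Paneth sample, while the lowest count of any member was 21 in a progenitor and 52 in an ISC sample. By their median level on the TMM scale 26 members were highest in ISCs in aged mice and 21 in young mice, an order that was not counted over all genes. Paneth cells held the highest median for Ppan, Nop56, Nop14 and Rrp9 at both ages, and progenitors for Bop1 and Rrp12. Without scaling all 33 members were called lower in Paneth cells than in ISCs, as were 10014 of 12863 genes in aged and 10598 in young mice.

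Several members carry snoRNA genes within their own transcription units. In the GENCODE M21 annotation 8 of 33 members (24.2%) held a snoRNA gene on the same strand, against 1.81% of the 11574 protein-coding genes tested. They were Nop56 with 5, Nop58 with 4, Ncl, Gnl3 and Wdr43 with 3 each, Tsr1 and Ppan with 2 each and Dkc1 with 1. Of these 8, Ncl, Gnl3, Nop56, Nop58 and Ppan were lower in progenitors than in ISCs at both ages, as were 14 of all 33 members. Over all genes tested 19.4% were called lower in aged and 18.5% in young mice, each age taken alone. The share called lower at both ages was not counted over all genes. Both Nop56 calls and the aged Nop58 call were lost with the animal as a block. Overlaps were counted over a set of genes that left out snoRNA genes. Within that set no member overlapped another gene on its own strand, and 15 overlapped a gene on the other strand. The sources used here do not give whether counting used strand, so reads of those genes and their partners cannot be told apart.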

How the data were processed

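The authors deposited raw counts per gene for 112 libraries and a table of CPM (counts scaled to a common total), which was not used. Per the submitters' processing notes the tools were cutadapt 3.0, STAR 2.7.9a, HTSeq 0.13.5 and DESeq2 1.30.1 with build mm10; the sources used here give neither the annotation release nor the strand setting. Libraries held 1.08 to 7.57 M counts. The 69 Paneth libraries, 2 or 3 per animal, were summed per animal, which left 67 samples under 36 animal names, of which O_111m and O_111m_2nd were kept apart (whether they are 1 animal is not stated, and if so the pairs below would change), and samples were grouped by the titles.

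Counts were tested with edgeR 4.0.16 (R 4.3.3), using quasi-likelihood F tests with robust estimation, TMM scaling and a minimum count of 10 in filterByExpr, with p-values adjusted over all genes tested and called below 0.05. Age was fitted within each population by sex, and populations were compared within each age in a fit of both ages. The steps were tested on simulated data with 200 changed genes: of genes raised 2-fold and of genes lowered to 0.5-fold, 70% and 48% were recovered for age in ISCs (11958 genes), 68% and 66% in progenitors (11812 genes) and 30% and 20% in Paneth cells (11663 genes).

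The members and gene lists were chosen with earlier results of these data known. All members are given with values, per-sample values for a fixed set with at least 1 gene of each role and any member called for age, and of other lists up to 2 called genes with the smallest p per comparison. Alternatives in scaling were DESeq2 1.42.0 size factors, totals alone, and TMM after removal of mitochondrial genes. Further alternatives were no filter, DESeq2, limma-voom (limma 3.58.1), replicate blocks and the first technical library. The last were the number at the end of the ISC sample names as a term, aged animals under 26 months and each sample left out. Animal names pair samples of 2 populations: 10 animals for progenitors and ISCs, 15 for Paneth cells and ISCs and 14 for Paneth cells and progenitors. Deviations of samples of the same animal correlated at medians of 0.0768, 0.0526 and 0.0574. Promoters are from RefSeq (GRCm38.p6, the sequence of mm10) and positions from GENCODE M21.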

Additional observations from a re-analysis of the deposited data

Results flagged for a closer look

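Of 72 groups of 4 to 10 samples tested for a sample that stood apart from its group, 3 had one, and chance flags about 1 in 20 groups. Larger groups were not tested. This left out every Paneth group, and every ISC group except those of Ppan within 1 sex and age, so the flags say nothing about these samples. Dkc1 was highest at 71.46 CPM in the aged male progenitor sample 5, with the next sample at 47.31 CPM. In young progenitors Dkc1 was highest at 62.09 CPM in the male sample 5, with the next at 47.84 CPM. Utp20 reached 37.92 CPM in the young female progenitor sample 2, with the next at 27.34 CPM.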

How the results depend on the processing

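Under library totals alone, with no scaling, 33 members were lower and 0 higher in Paneth cells than in ISCs at each age, and 32 lower and 0 higher than in progenitors. Over all genes, 10014 of 12863 in aged and 10598 in young mice were called lower than in ISCs. Against progenitors 9255 of 12589 in aged and 9999 in young mice were called lower. Against ISCs, Ppan, Bop1 and Nop56 then gave -1.01, -1.47 and -1.38 in aged mice and -1.27, -1.49 and -1.60 in young mice. Against progenitors in aged mice Ppan gave -0.16, Ncl -1.21, Nop56 -0.67, Nop14 -0.72, Nop2 -1.34, Fbl -1.34, Polr1a -1.23 and Heatr1 -1.34. Against progenitors in young mice Nob1 gave -1.43, Ppan -0.36, Bop1 -1.73, Ncl -1.39, Nop56 -1.0, Nop14 -0.90, Nop2 -1.52, Mybbp1a -1.32 and Polr1a -1.82. All these differences had the opposite sign under TMM, and the median of all genes shifted with them.

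With the first technical library alone, Paneth cells had 3 lower members in aged and 2 in young mice against ISCs, with 0 higher in young mice, and 1 higher at each age against progenitors. Of 12070 genes, 921 in aged and 825 in young mice were then lower than in ISCs, and 1068 higher in young mice. Of 11636 genes, 803 in aged and 779 in young mice were higher than in progenitors. limma-voom called 12 members lower in aged Paneth cells than in ISCs, where 2196 of 12863 genes were lower. It called 3 members higher and 2 lower in young Paneth cells than in progenitors, where 1391 of 12589 genes were higher and 1898 lower. Without a filter 3 members were higher in this last comparison, where 2008 of 20777 genes were higher. With the animal as a replicate block, 1 member was higher in progenitors than in ISCs at each age, where 1677 of 12436 genes in aged and 1532 in young mice were higher. In young Paneth cells 2 members were lower than in ISCs, where 660 of 13670 genes were lower. Against progenitors 1 member was higher in aged and 3 in young Paneth cells, where 821 and 1137 of 12623 genes were higher. Without mitochondrial genes 1 member (Bop1) was higher in young progenitors than in ISCs, where 2347 of 12678 genes were higher. The cause of these changes was not tested.

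With each sample left out in turn, 18 to 23 members were lower in aged and 14 to 19 in young progenitors than in ISCs, with 0 higher in aged mice in each fit and 0 to 1 in young mice. Paneth cells had 4 to 9 lower members in aged and 5 to 7 in young mice against ISCs, and 2 to 4 higher in aged and 3 to 5 in young mice against progenitors. As a share of all counts the summed medians were 0.139% in aged and 0.124% in young Paneth samples and 0.537% in young ISCs. For age, 0 members were called in every population under every alternative and with every sample left out. The replicate numbers of the titles did not pair the samples (median correlations of 0.0121 in Paneth cells, -0.00605 in progenitors and 0.0308 in ISCs), and that replicate block left the count for age at 0, while Ppan in male ISCs gave -0.64 and lost its call, as it did with the number at the end of the sample names as a term (-0.59). For age in Paneth cells, 30% of genes raised 2-fold, 20% of genes lowered to 0.5-fold and 60% of genes raised 4-fold were recovered in simulated data.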
